A study of Mus musculus with 18 samples.

Results

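The genes described here encode the nuclear subunits of the mitochondrial respiratory chain and ATP synthase, with assembly factors of complexes I and II. They were taken by symbol, as all genes that begin with Nduf, Sdh, Uqcr, Cox4 to Cox8 or Atp5, with pseudogenes dropped. The rule found 91 of the 22180 genes measured on the arrays: 34 of complex I, 4 of complex II, 7 of complex III, 17 of complex IV, 17 of complex V (the ATP synthase) and 12 assembly factors. A further 9 genes of the rule, among them Uqcr10 and Cox6c, had no probe set that names a single gene and are not analysed here. Of the 91, 87 passed the filter on low values and were tested, and Ndufs5, Cox7b2, Cox8b and Cox8c did not pass.

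The respiratory chain passes electrons from NADH and succinate to oxygen through complexes I to IV and pumps protons across the inner mitochondrial membrane, and complex V uses the proton gradient to make ATP. Most subunits are nuclear genes whose proteins are imported and joined to a small core that mitochondrial DNA encodes, with the help of assembly factors. Pluripotent cells are known to rely more on glycolysis than fibroblasts do, and several subunits of complex IV exist as isoforms of different tissues. NRF1, a transcription factor, is known to bind the promoters of many of these genes, as are factors of the ETS and ERR families and YY1.

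The study followed reprogramming of mouse fibroblasts to induced pluripotent stem cells (iPSCs) on 18 Affymetrix gene arrays, all of strain Black6-129X1/SvJ. Reprogrammable mouse embryonic fibroblasts (MEFs), in which dox induces OKSM (Oct4, Klf4, Sox2 and Myc), were kept in bulk culture with OKSM and AGi (ascorbic acid plus a GSK3 inhibitor) or with OKSM without AGi. Each arm gave 1 array on each of days 2, 4, 6, 8, 10 and 12. The 6 other arrays were single samples of wild-type embryonic stem cells (ESCs), Fibroblast-iPSC (made with 96 hours of OKSM and AGi), GMP-iPSC (made with 48 hours of it), granulocyte-macrophage progenitors (GMPs), Thy1-positive cells sorted after 3 days of OKSM, and the MEFs without dox. Levels are log2 RMA values, differences are log2, and an error is the SE of limma unless stated otherwise. No arm and day was repeated, so the 6 days stand as replicates of an arm. For the AGi effect, fitted with day as a block, a p-value measures the spread over days of the difference between arms. For slopes, it measures the scatter of the days around the fitted lines. Beyond the induction by dox, the labels do not say what drives OKSM, nor whether the days were separate cultures.

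Array medians lay between 6.32 and 6.46. Fibroblast and pluripotent markers matched the labels: the mean over 10 pluripotent markers was 10.75 to 10.87 on the ESC and iPSC arrays and 6.05 on the MEF array, and the mean over 10 fibroblast markers was 7.50, 8.25 and 6.77 on the ESC, Fibroblast-iPSC and GMP-iPSC arrays, 6.23 in GMPs and 9.97 in MEFs. The fibroblast mean in the cultures was 7.69 to 9.91 with AGi and 8.61 to 10.70 without. Cultures are bulk samples, so fewer cells of a type and less RNA per cell cannot be told apart. Hybridisation controls are RNAs that are added to the mix after labelling and stem from no sample. All 18 of their probe sets were higher in cultures with AGi, by 0.06 to 0.26 and on average by 0.17 ± 0.07 (SD over 6 days), and 11 of them passed the same test as the genes.

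The promoters of the chain were examined first, because the factors named above have known binding letters. RefSeq promoters of build GRCm38.p6, from 250 bases before to 50 after the start, were found for 76 of the 91 genes (81 promoters). The letters CGCATGCGC of NRF1, read on both strands, stood in 10 of them, which is 12.3%, against 3.22% of the 13639 promoters of all tested genes and 1.75% of all 32851 promoters. The YY1 letters AAGATGGCG stood in 8.64%, against 2.62% of the promoters of tested genes and 1.40% of all. The ERR letters TCAAGGTCA stood in 2.47% (Sdhd and Atp5g3), against 0.279% and 0.423%. The ETS letters CCGGAAGT (6.17%, against 7.03% and 3.89%) and the E-box CACGTG (8.64%, against 9.73% and 7.15%) were about as frequent as in promoters of tested genes. Uqcr11 held both NRF1 and ETS letters, Atp5l NRF1 letters and an E-box, and Atp5g3 ERR letters and an E-box, in each case without overlap. A match is a description of the sequence and no measured binding site.

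The stretches below are shown because they carry the NRF1 letters, in capitals, in promoters of genes from complexes I, III, IV and V and of an assembly factor. In Uqcr11 the letters run across the start, and in the others they lie before it. Their first base is at −241 from the start in Atp5l, −161 in Cox6a1 and −112 in Ndufaf4, and nearer to it in the other genes shown. Each is written 5′ to 3′ in the direction of its gene.
Ndufa11: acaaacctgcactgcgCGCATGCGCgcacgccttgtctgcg
Ndufa8: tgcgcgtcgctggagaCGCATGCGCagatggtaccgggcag
Uqcr11: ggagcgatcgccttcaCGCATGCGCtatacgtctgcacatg
Cox6a1: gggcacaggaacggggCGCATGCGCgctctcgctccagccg
Atp5k: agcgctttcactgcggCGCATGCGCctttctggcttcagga
Atp5l: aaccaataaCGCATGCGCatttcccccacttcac
Atp5g2: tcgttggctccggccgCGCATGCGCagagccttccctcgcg
Ndufaf4: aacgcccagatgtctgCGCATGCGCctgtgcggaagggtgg
They lie at chr17:56717687-56717727 (plus strand, Ndufa11), chr2:36049323-36049363 (minus strand, Ndufa8), chr10:80406802-80406842 (minus strand, Uqcr11), chr5:115349095-115349135 (minus strand, Cox6a1), chr5:108434424-108434464 (minus strand, Atp5k), chr9:44920959-44920992 (minus strand, Atp5l), chr15:102671064-102671104 (minus strand, Atp5g2) and chr4:24897955-24897995 (plus strand, Ndufaf4). The ERR letters of Atp5g3, a membrane ring subunit of the ATP synthase, stand on the other strand. They so appear as their reverse complement, in the stretch at chr2:73911354-73911394 (minus strand).
Atp5g3: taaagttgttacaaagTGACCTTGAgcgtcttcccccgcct
The 10 genes with NRF1 letters, Uqcrc1 and Ndufaf5 included, did not all behave alike in the cultures: 7 of the 42 genes with a promoter that were higher with AGi carried the letters, as did 3 of the 31 that did not pass the test.

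The first comparison asked how AGi changed these genes at matched days. Most were slightly higher with AGi: 51 of 87 tested genes passed limma's test (day as a block, Benjamini-Hochberg over all 13865 genes tested, adjusted p threshold 0.05) as higher and 0 as lower, where 19.6% of all tested genes were higher and 19.3% lower. Of the 87, 84 had a difference above 0, and their median difference was 0.26, against 0.0010 over all tested genes. Among 7105 genes with a mean level between the quartiles of these genes (8.17 to 11.1), the median was 0.024 and 24.9% were higher. The count was 33 when day 8 was left out, and 32 of the 51 passed without each of the 6 days in turn. Shares of all tested genes without single days are not given here. The 12 cultures were fully separated, with the lowest array with AGi above the highest without, for 19 of the 87 genes, against 5.97% of all tested genes.

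The size of these differences lay close to that of the hybridisation controls, and the part of the controls' difference in them was not tested. When arrays were centred on the controls, the median of all tested genes moved to −0.17 and that of the chain genes to 0.089. This centring shifts every gene of an array alike, so it leaves the distance of 0.26 between these medians as it was. On that scale 12 of the 87 were higher and 2 lower, against 7.61% and 38.1% of all tested genes. Tested against the largest control difference in place of 0, 4 of the 87 were higher (Atp5mpl, Cox7a1, Cox5a and Ndufb10), against 3.09% of all tested genes. The plot of differences by gene shows this range of the controls behind each complex.

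**Figure D1:**
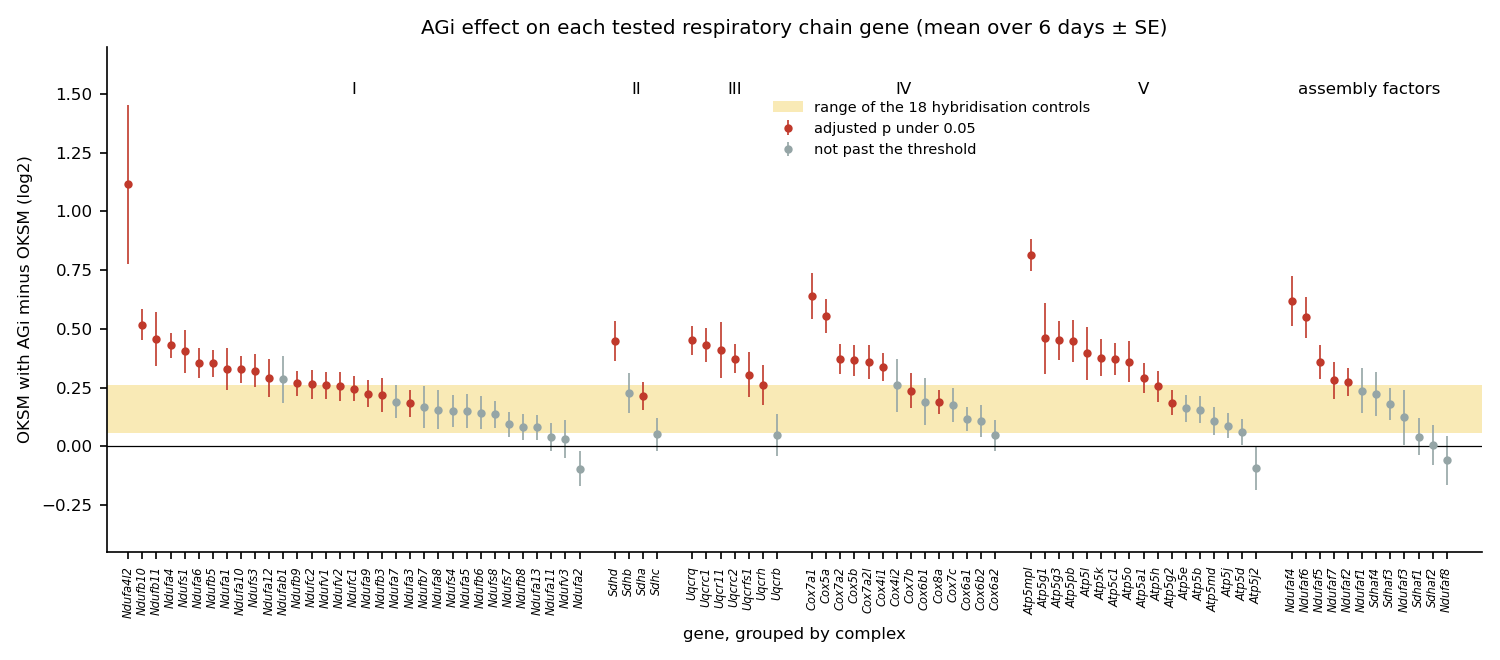
Difference of each tested gene between cultures with AGi and without it (log2, y axis), sorted within each complex (x axis). Points are means over 6 days with the SE of limma, red where the adjusted p was under 0.05, and the yellow band spans the 18 hybridisation controls (0.06 to 0.26). Ndufa4l2 (1.12) and Atp5mpl (0.81) stand highest, and 3 genes lie below 0.

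Complex I, which takes electrons from NADH, had 19 of 33 tested genes higher with AGi and a median difference of 0.25. Ndufb10, a subunit of its membrane arm, had levels of 8.16, 8.35 and 8.54 with AGi (lowest, median and highest day) and of 7.69, 7.83 and 8.05 without. The arms did not overlap, and the difference was 0.52 ± 0.07 (adjusted p = 0.00155 with limma, higher on 6 of 6 days). Ndufs1, the largest subunit of the peripheral arm, was higher by 0.40 ± 0.09 (adjusted p = 0.0109), with overlapping arms. The smallest differences that passed in complex I were those of Ndufa3 (0.18 ± 0.06, adjusted p = 0.0378), Ndufb3 (0.22 ± 0.07) and Ndufa9 (0.22 ± 0.06), all of them within the range of the controls. Each lost its call without 2 to 5 of the single days (adjusted p up to 0.120 with limma). Ndufa2 had the lowest difference of all tested genes of the chain, −0.09 ± 0.07, and did not pass (adjusted p = 0.341). On the control-centred scale it was one of the 2 genes called lower, with Atp5j2, a subunit of the ATP synthase (both −0.26).

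Ndufa4 is named as a complex I gene but its protein is now counted with complex IV, and Ndufa4l2 is its paralogue, known as a target of hypoxia-inducible factors. Ndufa4l2 read 6.23, 6.16, 7.34, 8.74, 8.97 and 8.77 with AGi on days 2 to 12, and 6.19, 6.28, 6.45, 6.54, 6.70 and 7.34 without AGi. The arms lay close on days 2 and 4 and apart from day 6 on. Its mean difference was the largest of the chain, 1.12 ± 0.34 (adjusted p = 0.0326, higher on 5 of 6 days). The call was lost without day 6, 8, 10 or 12 (adjusted p = 0.0659 to 0.0972 with limma), without the day as a block (adjusted p = 0.115) and against the control difference (adjusted p = 0.136). Ndufa4 had 9.98, 10.30 and 10.37 with AGi and 9.56, 9.87 and 9.94 without (lowest, median and highest day). Its arms did not overlap, with a difference of 0.43 ± 0.05 (adjusted p = 0.00149).

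Complex II, succinate dehydrogenase, belongs both to the chain and to the tricarboxylic acid cycle and has no subunit from mitochondrial DNA. Of its 4 genes, Sdhd and Sdha were higher with AGi. Sdhd, a membrane anchor, read 10.41, 10.65 and 10.74 with AGi and 10.03, 10.13 and 10.29 without (lowest, median and highest day), with no overlap and a difference of 0.45 ± 0.08 (adjusted p = 0.00566). Sdha, the flavoprotein subunit, differed by 0.21 ± 0.06 (adjusted p = 0.0255), and its call was lost without day 4, 6 or 10 and without the block of day (adjusted p = 0.104 with limma). The difference of Sdha lay within the range of the controls. Sdhb, the iron-sulfur subunit (0.23 ± 0.09, adjusted p = 0.0706), and Sdhc, the other anchor (0.05 ± 0.07, adjusted p = 0.592), did not pass, though Sdhb did without day 12 (adjusted p = 0.0460).

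Complex III, which hands electrons to cytochrome c, had the highest median of the complexes, 0.37, and 6 of its 7 genes were higher with AGi. The core protein gene Uqcrc1 had 12.04, 12.15 and 12.32 with AGi and 11.61, 11.73 and 11.85 without (lowest, median and highest day). The arms did not overlap (0.43 ± 0.07, adjusted p = 0.00354), nor did those of Uqcrc2 (0.37 ± 0.06, adjusted p = 0.00365) and Uqcrq, a small subunit (0.45 ± 0.06, adjusted p = 0.00202). Calls of the other genes that passed were less stable. Uqcr11 (0.41 ± 0.12) lost its call without day 4, 6, 8 or 10, and Uqcrfs1 (0.30 ± 0.09) without day 6, 8 or 10. That of Uqcrh (0.26 ± 0.09) was lost without day 2, 4, 6, 8 or 10 (adjusted p up to 0.122 with limma). The difference of Uqcrh lay within the range of the controls. Uqcrb, another small subunit, was the gene that did not pass (0.05 ± 0.09, adjusted p = 0.700).

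Complex V had 11 of 17 genes higher with AGi and a median of 0.29. Atp5mpl, a small protein bound to the ATP synthase, read 8.71, 8.51, 8.37, 8.69, 8.79 and 8.15 with AGi on days 2 to 12, and 8.06, 7.74, 7.65, 7.75, 7.74 and 7.38 without AGi. Every array with AGi lay above every array without, and the difference of 0.81 ± 0.07 had the lowest adjusted p of the chain (0.000617, higher on 6 of 6 days; 0.00276 against the largest control). The genes of the membrane ring, which encode the same mature protein, were all called higher, Atp5g1 by 0.46 ± 0.15 (adjusted p = 0.0427), Atp5g2 by 0.18 ± 0.05 (adjusted p = 0.0273) and Atp5g3 by 0.45 ± 0.08 (adjusted p = 0.00518). The call of Atp5g1 was lost without day 2, 4, 6, 8 or 10 (adjusted p = 0.0576 to 0.0940 with limma) and without the block of day (0.0526), and its value was 0.30 without day 8. The call of Atp5g2 was lost without day 4, 6, 8, 10 or 12 (adjusted p = 0.0511 to 0.0827 with limma) and without the block (0.0509), and its difference lay within the range of the controls. Atp5g3 passed without each day in turn.

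Of the 12 assembly factors 5 were higher, with a median of 0.23. Ndufaf4, needed to build complex I, had 9.00, 9.52 and 9.80 with AGi and 8.67, 8.84 and 8.96 without (lowest, median and highest day). The arms did not overlap (0.62 ± 0.11, adjusted p = 0.00416; adjusted p = 0.0574 against the largest control). Ndufaf6 differed by 0.55 ± 0.09 with no overlap (adjusted p = 0.00324; 0.0634 against the largest control). Sdhaf2, which serves the attachment of FAD to Sdha, differed by 0.0053 ± 0.08 and did not pass.

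Complex IV, cytochrome c oxidase, had 8 of 14 tested genes higher with AGi and a median of 0.25. Cox5a, a subunit without a tissue isoform in mammals, read 9.69, 9.73, 9.45, 9.63, 9.63 and 9.59 with AGi on days 2 to 12, and 9.26, 9.27, 9.12, 8.95, 8.99 and 8.81 without AGi. The arms did not overlap, and the difference was 0.55 ± 0.07 (adjusted p = 0.00177; 0.0322 against the largest control). Cox8a had the smallest difference that passed in this complex, 0.19 ± 0.05 (adjusted p = 0.0243), and lost its call without day 4, 6, 8 or 10. This difference lay within the range of the controls.

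Isoform pairs of complex IV did not all follow the same course. Cox7a1, the heart and skeletal muscle isoform of subunit VIIa, read 6.80, 7.04, 7.11, 7.59, 7.49 and 7.62 with AGi on days 2 to 12, and 6.29, 6.78, 6.65, 6.73, 6.57 and 6.80 without AGi. The arms did not overlap, but only by a very small margin: 6.80017 on day 2 with AGi against 6.79976 on day 12 without. The mean difference was 0.64 ± 0.10 (adjusted p = 0.00283 with limma, and 0.0369 against the largest control). Its level on the ESC, Fibroblast-iPSC and GMP-iPSC arrays was 9.50, 9.50 and 9.53, above every culture, and 6.61 on the MEF array. Of the list of 10 striated muscle markers, 7 were tested, of which 0 were higher and 2 lower with AGi, and the mean of the 10 was 6.62 to 6.78 with AGi and 6.60 to 6.86 without, with Myh3 lowest (4.54). Cox7a2, the liver isoform of the same subunit, differed by 0.37 ± 0.07 with no overlap (adjusted p = 0.00437), and the related Cox7a2l, which takes part in joining complexes III and IV, by 0.36 ± 0.07.

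The promoters of this pair are shown from 250 bases before the start up to it, with each CG pair in capitals, because CG pairs are the sites of DNA methylation, which was not measured here. Cox7a1 (chr7:30183921-30184170, plus strand) held 4 CG pairs and Cox7a2 (chr9:79759854-79760103, minus strand) 14, where the median was 15 both over the 81 promoters of the chain and over those of all tested genes. None of the 5 motifs searched stood in either.
Cox7a1: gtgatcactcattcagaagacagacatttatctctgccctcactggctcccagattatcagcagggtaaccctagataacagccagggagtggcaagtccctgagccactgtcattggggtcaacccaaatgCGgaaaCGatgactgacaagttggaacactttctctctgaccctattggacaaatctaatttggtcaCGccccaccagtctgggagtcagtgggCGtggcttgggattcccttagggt
Cox7a2: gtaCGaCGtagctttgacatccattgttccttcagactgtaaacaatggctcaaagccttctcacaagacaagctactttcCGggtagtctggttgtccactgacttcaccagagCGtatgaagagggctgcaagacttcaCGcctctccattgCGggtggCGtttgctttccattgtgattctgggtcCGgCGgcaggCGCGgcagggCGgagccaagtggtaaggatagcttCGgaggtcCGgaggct
Of the other isoform genes, Cox8b held 1 CG pair, Cox6b2 held 8 and Cox7b2 held 9. Low counts were not particular to such isoforms, as Ndufc2 held 4, Cox7b 5, and Atp5l and Ndufb10 held 7 each.

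Cox6b2, known as the testis isoform of subunit VIb, read 7.19 on the MEF array and 8.60 in GMPs, and lay between 9.67 and 10.47 in cultures with AGi and between 9.60 and 10.32 in OKSM cultures. It was thus above the MEF level in each of the 12 cultures from day 2 on, and AGi made no difference that passed (0.11 ± 0.07, adjusted p = 0.242). Its general paralogue Cox6b1 differed by 0.19 ± 0.10 (adjusted p = 0.172), and by 0.29 without day 12, when it passed (adjusted p = 0.0183 with limma). Cox4i2, the isoform of subunit IV found in lung and raised by low oxygen, read 7.43, 7.37, 7.66, 8.26, 7.91 and 8.43 with AGi on days 2 to 12, and 7.39, 7.42, 7.58, 7.69, 7.71 and 7.71 without AGi. The arms overlapped and the mean difference did not pass (0.26 ± 0.11, adjusted p = 0.104). It was 0.17 without day 12, and on days 8, 10 and 12 alone it was 0.50 and passed (adjusted p = 0.0334 with limma). The general isoform Cox4i1 was higher by 0.34 ± 0.06 (adjusted p = 0.00427). Cox7b was higher by 0.24 ± 0.07 (adjusted p = 0.0372), a call lost without day 2, 4, 8 or 10 and without the block of day (adjusted p = 0.0864 with limma). The difference of Cox7b lay within the range of the hybridisation controls. Cox6a1 (0.12 ± 0.05, adjusted p = 0.107) and its muscle isoform Cox6a2 (0.05 ± 0.07, adjusted p = 0.601) did not pass. Cox8b and Cox8c stayed between 4.81 and 6.12 in the 12 cultures and Cox7b2 between 3.91 and 5.25.

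**Figure D2:**
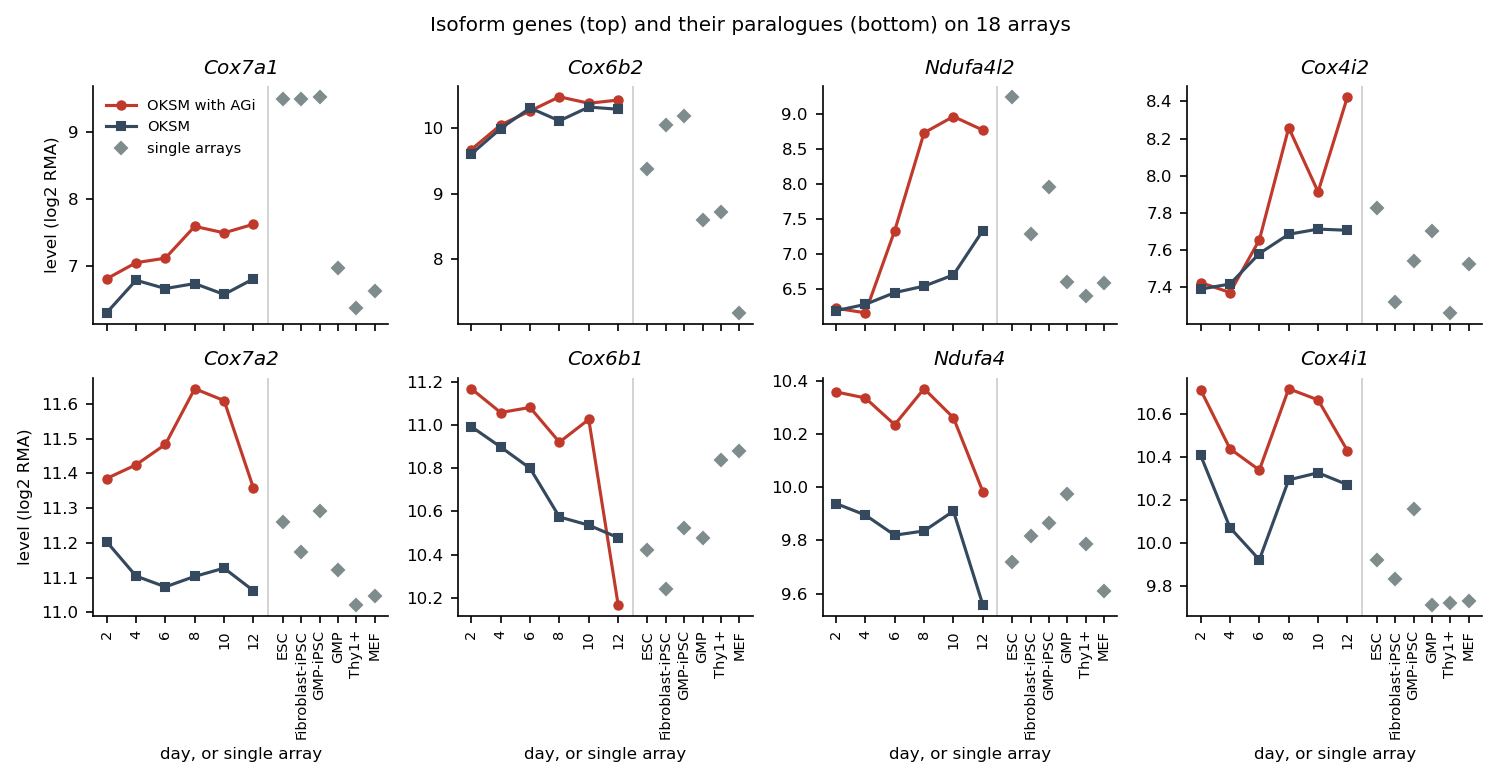
Level (log2 RMA, y axis) of isoform genes in the top row and their general paralogues in the bottom row, on days 2 to 12 with AGi (red circles) and without (dark squares) and on 6 single arrays (grey diamonds). Cox7a1 was highest on the ESC and iPSC arrays, Cox6b2 was above the MEF level in each culture, and Ndufa4l2 was higher with AGi from day 6 on.

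By day, the median difference of the 87 genes was 0.18 on day 2, 0.23 on day 4, 0.29 on day 6, 0.35 on day 8, 0.28 on day 10 and 0.17 on day 12, with 66 to 85 of the 87 above 0. The controls differed by 0.23, 0.14, 0.19, 0.19, 0.04 and 0.21 on those days, so that their difference was above the genes' median on days 2 and 12. Complex III had its highest median on day 6 (0.50) and complex IV on day 8 (0.42), and the assembly factors stood at −0.0056 on day 4. Other mitochondrial and ribosomal genes moved by about as much: 48 of 69 mitochondrial ribosome genes were higher (median 0.29), 46 of 65 cytosolic ribosome genes (median 0.28) and 10 of 17 genes of the tricarboxylic acid cycle (median 0.23). None of the ribosome genes was lower, and 1 gene of the cycle, Pcx, was.

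**Figure D3:**
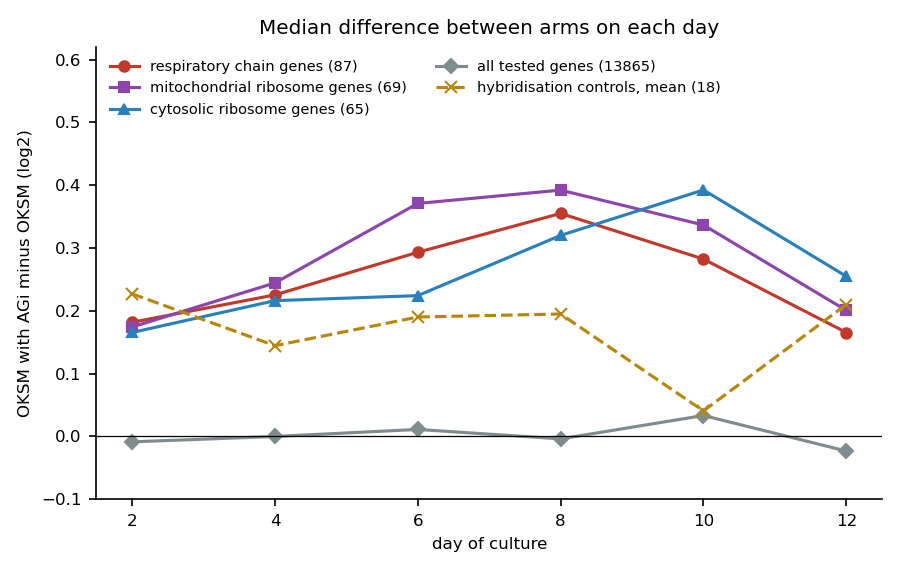
Median difference between cultures with AGi and without it (log2, y axis) on each day (x axis) for the chain genes, the mitochondrial and cytosolic ribosome genes and all tested genes, with the mean of the 18 hybridisation controls dashed. The 3 gene groups lie between 0.17 and 0.39 and all genes near 0, and the controls are at 0.04 on day 10 and 0.21 on day 12.

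Genes that act with the chain gave the following. Of 14 other chain genes (cytochrome c, ubiquinone synthesis and electron transfer), 8 were higher with AGi and 0 lower. Dhodh, an enzyme of pyrimidine synthesis that feeds ubiquinone, was higher by 0.75 ± 0.09 (adjusted p = 0.00153 with limma). Cyc1, a haem subunit of complex III, was higher by 0.45 ± 0.07 (adjusted p = 0.00311 with limma). Of 32 other assembly factors 18 were higher and 1, Cox20, lower (−0.32 ± 0.09, adjusted p = 0.0245). Lrpprc, which stabilises mitochondrial mRNAs, was highest at 0.80 ± 0.09 (adjusted p = 0.000991). Of 10 measured mitochondrial DNA genes 1 was higher, COX3 (0.19 ± 0.06, adjusted p = 0.0345), and 0 were lower. Their mean level was high, 12.58 to 12.78 with AGi and 12.43 to 12.72 without, with ND6 lowest (8.97).

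Among 21 tested regulators of mitochondrial genes 9 were higher and 1, Myc, lower (−1.09 ± 0.08, adjusted p = 0.000617). Lin28a and Esrrb stand both in this list and in that of the pluripotent markers. Lin28a, higher by 0.46 ± 0.14 (adjusted p = 0.0331 with limma), is counted in both. Ppargc1b, a coactivator of mitochondrial genes, was higher by 0.82 ± 0.19 (adjusted p = 0.0114), and Tfam, which packs mitochondrial DNA, by 0.41 ± 0.11 (adjusted p = 0.0238). Nrf1 (0.19 ± 0.07, adjusted p = 0.0681) and Esrra (0.13 ± 0.08, adjusted p = 0.272) did not pass. Whether the Myc probe set reads the induced factor or the cells' own gene is unknown. Marker genes differed between the arms too: 7 of 10 pluripotent markers were higher (median 1.82), 7 of 10 fibroblast markers lower (median −0.78), and of 9 macrophage markers 5 were lower and 1 higher. Of 9 cell cycle genes 3 were higher (median 0.27), and the part of cell makeup and division in the chain genes' difference was not tested.

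The second comparison asked whether the arms drew apart over the days. The slope difference passed with limma for 0 of the 87 genes in either direction. Of all tested genes, 1.76% passed with a higher slope with AGi and 1.3% with a lower one. An unadjusted p under 0.05 (limma) was found for 5 of the 87 and for 2508 of all 13865 tested genes. The largest slope difference was that of Ndufa4l2, 0.22 ± 0.06 log2 per day steeper in cultures with AGi (adjusted p = 0.0764). Next in size were Ndufaf3 (0.08 ± 0.03, adjusted p = 0.256), Cox4i2 (0.07 ± 0.03, adjusted p = 0.217) and Cox7a1 (0.06 ± 0.03, adjusted p = 0.280). Ndufaf8 and Atp5l were at the other end (−0.052 and −0.050). Without day 12, 1 gene, Ndufa4l2, passed as higher.

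Within the cultures with AGi, 7 of the 87 genes rose over the days and 5 fell, against 10.5% and 8.23% of all tested genes. Ndufa4l2 gained 0.32 ± 0.04 log2 per day (adjusted p = 0.000736), Cox4i2 0.10 ± 0.02 (adjusted p = 0.00440), Ndufb11 0.10 ± 0.02, Cox7a1 0.085 ± 0.018 (adjusted p = 0.00955), Ndufaf3 0.083 ± 0.024, Ndufa7 0.082 ± 0.011 (adjusted p = 0.000953) and Cox6b2 0.071 ± 0.020. The genes that fell were Cox6b1 (−0.075 ± 0.022 per day, adjusted p = 0.0335), Ndufa12, Ndufab1, Cox5b and Ndufb6. Without day 12, 2 rose and 0 fell, and the falls of Ndufa12 and Cox5b were not called when all probe sets of a gene were averaged. In OKSM cultures Ndufa7 rose (0.045 ± 0.011 per day, adjusted p = 0.0331) and Ndufb6 (−0.072 ± 0.015, adjusted p = 0.0151) and Cox5a (−0.046 ± 0.012, adjusted p = 0.0419) fell, against 5.11% and 3.87% of all tested genes. The OKSM rise of Ndufa7 was lost when any 1 of the 6 days was left out, and both falls were lost without day 2 or day 4.

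The last step of the AGi series ran downward for most of the genes. From day 10 to day 12 with AGi, 17 of the 87 genes were higher on the later day and their median step was −0.22, against −0.055 over all tested genes. In OKSM cultures the median step of the 87 was −0.068. The median step was −0.35 in complex III (0 of 7 genes up), −0.27 in complex V (1 of 17 up), −0.24 in complex I (6 of 33 up) and −0.042 in complex IV (6 of 14 up). The mitochondrial ribosome genes had a step of −0.27 and the cytosolic ones of −0.053. With 1 array per arm and day, this step has no replicate.

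**Figure D4:**
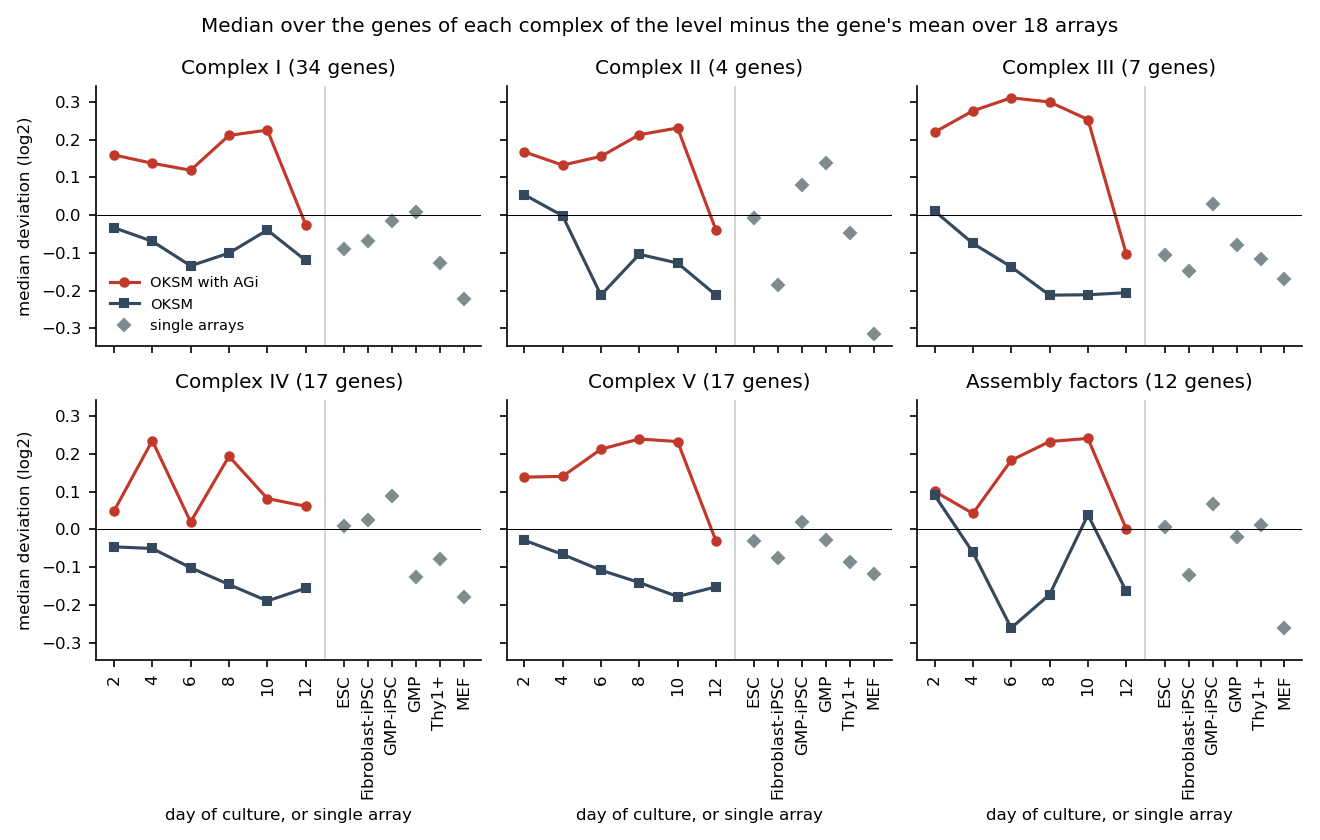
For each complex, the median over its genes of the level minus the gene's own mean over 18 arrays (log2, y axis), on days 2 to 12 with AGi (red circles) and without (dark squares) and on 6 single arrays (grey diamonds). Cultures with AGi lie above OKSM cultures in every panel and on every day, most narrowly for the assembly factors on day 2 (0.10 and 0.091), and the day 12 array with AGi is lower than day 10 in all 6 panels.

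The third comparison set pluripotent cells against fibroblasts, as the mean of the ESC, Fibroblast-iPSC and GMP-iPSC arrays minus the single MEF array, with no test. The median difference over the 91 genes was 0.19, and 5 were at least 1 log2 higher and 0 at least 1 log2 lower, where 7.7% of all 22180 genes were higher and 8.12% lower by that much. The 5 were Cox7a1 (2.90), Cox6b2 (2.67), Ndufa4l2 (1.58), Ndufaf3 (1.42), which takes part in complex I assembly, and Cox7c (1.03). The lowest were Cox6b1 (−0.49), Sdhaf2 (−0.30), Ndufa12 (−0.28) and Ndufb7 (−0.26). By complex the medians were 0.21, 0.30, 0.13, 0.19 and 0.10 for complexes I to V and 0.27 for the assembly factors.

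**Figure D5:**
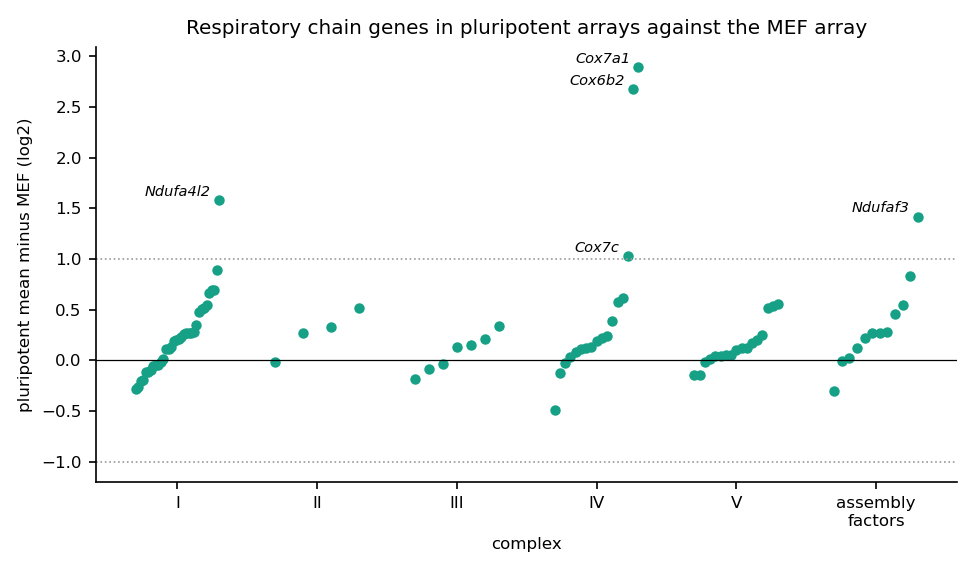
Mean of the ESC, Fibroblast-iPSC and GMP-iPSC arrays minus the MEF array (log2, y axis) for each of the 91 genes by complex (x axis), with dotted lines at 1 and −1. The 5 genes past 1 are named, and the others lie between −0.49 and 0.89.

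The pluripotent arrays differed among themselves for some of these genes. Ndufa4l2 read 9.25 in ESCs, 7.29 in Fibroblast-iPSC and 7.96 in GMP-iPSC, against 6.58 in MEFs, and Cox7c read 7.79, 6.65 and 6.30, against 5.89 in MEFs. These were the 2 genes at least 1 log2 lower in Fibroblast-iPSC than in ESCs, and the 2 lower in GMP-iPSC than in ESCs. The background was 1.06% lower and 1.68% higher for Fibroblast-iPSC, and 0.766% lower and 0.604% higher for GMP-iPSC. No gene of the chain was higher by that much in either line, and the ESC array is shared by both comparisons.

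Day 2 arrays, Thy1-positive cells and GMPs were set against the MEF array in the same way, and the shares of chain genes past 1 log2 were near or below those of all genes. On day 2 with AGi, Cox6b2 (2.48), Atp5mpl (1.20) and Ndufaf3 (1.19) were at least 1 log2 higher than in MEFs and 0 genes lower (3.25% and 2.9% of all genes), and the median of the 91 was 0.31. On day 2 with OKSM without AGi, Ndufaf3 (1.55) and Cox6b2 (2.41) were higher and 0 genes lower (3% and 2.23%), with a median of 0.14. Thy1-positive cells had Cox6b2 (1.53) and Ndufaf3 (1.35) higher and 0 genes lower (2.58% and 2.31%), with a median of 0.09. GMPs, a blood progenitor, also had Ndufaf3 (2.01) and Cox6b2 (1.41) higher and 0 genes lower (7.42% and 8.49%), with a median of 0.18. All 4 of these comparisons, and that of the pluripotent arrays, rest on the same MEF array, which had the lowest level of both genes among the 18 arrays.

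On day 12 the cultures with AGi had a median of 0.0037 over the 91 genes relative to the pluripotent mean, with Cox7b2 (1.04) higher and Cox7a1 (−1.89) lower by at least 1 log2, against 5.13% and 1.6% of all genes. Cox7a1 thus read 7.62 in these cultures on day 12, against 9.50 to 9.53 on the pluripotent arrays, while the mean over the 10 pluripotent markers was 10.23 on that day and 10.75 to 10.87 on those arrays. Cox7b2 read 5.25 with AGi on day 12 and 4.02 to 4.19 on the other AGi days. It did not pass the filter on low values.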

How the data were processed

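One array was hybridised per sample (18 in all). The deposited tables hold log2 expression values, 1 per probe set, which the authors produced by RMA in Affymetrix Expression Console, per the submitters' processing notes. No RMA setting, scan date or genome build is given in the sources used here, and scan batches were therefore not tested. Probe sets naming a single gene (23521 of 41345) were kept, with names from the platform annotation updated through RefSeq gene IDs. The probe set of highest mean over the 18 arrays stood for its gene, which left 22180 genes. Among the 91 chain genes, 10 had several probe sets, and those of Ndufa11 (AGi effect), Cox5b and Cox7b (pluripotent against MEF) differed in sign. A gene was tested (13865 were) if it reached its array's median on 3 or more of the 12 time-course arrays.

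limma 3.58.1 (lmFit, eBayes) in R 4.3.3 gave p-values, adjusted by Benjamini-Hochberg with a threshold of 0.05. For the AGi effect, each day was a block because the labels give every day 1 array of either arm (5 residual degrees of freedom). For slopes, arm, day and their product were fitted with no block (8 residual degrees of freedom). Comparisons of single arrays have no test. The rule for naming genes took the 6 highest and 6 lowest called AGi effects, the 4 highest and 4 lowest slopes and pluripotent differences, and isoform groups. Not every slope or slope difference that it lists is given in the text. Ndufs1, the complex III genes and the genes with promoter motifs were added after their values were seen. Members, lists and tests were chosen with earlier results of these data known. Alternatives varied the filter, the probe set rule, the normalization, centring on hybridisation controls, the variance model, the block and the days used. The fits of the AGi effect and of the slope difference were checked on simulated data with noise independent between genes, and the other fits were not. Promoter sequences are RefSeq's, and figures were made in Python 3.11.15 with matplotlib 3.10.9. The number of arrays limits the precision.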

Additional observations from a re-analysis of the deposited data

Results flagged for a closer look

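Values that stood apart from the other 5 days of their set by Dixon's rule are given here without explanation. Of 139 sets of 6 values examined, 14 held such a value, and chance gives about 1 in 20 for each set. On day 12 with AGi, Atp5g1 (6.28), Cox6b1 (10.17), Ndufa4 (9.98), Ndufb6 (9.95) and Uqcrh (9.00) were at their lowest level, and Cox7b2 (5.25) at its highest. The day 12 difference between cultures with AGi and OKSM cultures was highest for Cox7b2 (1.14) and lowest for Ndufaf8 (−0.60). On day 12 without AGi, Ndufa4 was lowest (9.56). On day 8, Ndufa3 (11.24) and Sdhc (10.95) were highest with AGi, Atp5g1 was lowest without AGi (5.76), and the median difference of complex IV was highest (0.42). Cox8b was highest with AGi on day 4 (6.12). Of the 14 values, 9 belong to day 12, and 8 of those involve the day 12 array with AGi.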

How the results depend on the processing

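The 51 chain genes higher with AGi were 41 with no replicate block for day, 12 with arrays centred on the hybridisation controls (and 2 lower), 4 against the largest control difference, 17 on days 2, 4 and 6 alone and 23 on days 8, 10 and 12 alone. Leaving out each day gave 33 (without day 8) to 53. For the fits without the block or with fewer days, shares of all tested genes are not given here. Those counts therefore have no background beside them. Of the 51, 19 lost the call without at least 1 day, and 7 other genes gained one without day 12. With the block of day added, the slope difference again called 0 genes. Genes falling over days with AGi (5) were 3 with probe sets averaged, 0 on the control-centred scale, 2 as late minus early level and 0 to 8 without each day, and genes rising (7) were 2 to 7. In OKSM cultures the counts of 1 rising and 2 falling genes became 0 and 0 on the control-centred scale, 0 and 0 as late minus early level, and 0 to 1 and 0 to 2 without each day, where the rising gene without day 2 was Ndufa6 in place of Ndufa7. The slope difference gave 0 to 1 higher without each day. Of the 84 genes above 0, 24 turned below 0 on the control-centred scale, none of them called higher. Those among the genes named by rule were Cox6a1 (−0.051), Cox6a2 (−0.12), Cox6b2 (−0.061), Ndufaf3 (−0.045), Ndufb6 (−0.025), Ndufb7 (−0.0022), Sdhaf2 (−0.16) and Sdhc (−0.12). Of the genes named by rule, signs turned on days 2 to 6 for Cox6a2 (−0.0034), Ndufaf3 (−0.11) and Ndufaf8 (0.069), on days 8 to 12 for Sdhaf2 (−0.086) and Sdhc (−0.0060), after quantile normalization for Sdhaf2 (−0.011), and without single days for Ndufaf8 (−0.10 to 0.048) and Sdhaf2 (−0.066 to 0.046). None of these genes had passed the test. The day subsets had fewer arrays and the control difference set a higher bar, and the cause of these changes was not tested. The counts against MEFs kept within 1.5 times.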
